A study of Mus musculus with 6 samples.

Results

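Expression of the epidermal growth factor (EGF) receptor system was followed in 6 single-cell RNA libraries of the mouse. The 6 genes described were set by name, out of 31053 genes in each matrix: the ligands Hbegf, Areg, Ereg and Tgfa, the receptor Egfr and the protease Adam17. The rule that chose them used gene names and no threshold on a measured value. Earlier results of these data were known when it was made, among them that Hbegf marked a vitamin D3 cell state. The rank of Hbegf among all genes after vitamin D3 is therefore a description. At least 1 unique molecular identifier (UMI, 1 captured RNA molecule) was counted for 5 of the 6 genes in untreated and in vitamin D3 dendritic cells, for 4 in Ndrg2-knockout dendritic cells, and for all 6 in each wound library.

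Ligands of the EGF receptor are made as precursors anchored in the cell membrane, and a metalloprotease cuts them free. ADAM17 is the main enzyme known to release HB-EGF, amphiregulin, epiregulin and TGF-alpha, whereas the released ligand can act on the same cell or on its neighbours through the receptor encoded by Egfr. In healing skin the pathway is known for its part in the migration and proliferation of keratinocytes. RNA of a ligand gives neither the amount of precursor nor how much of it was shed.

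The study compared dendritic cells (DCs) with and without the gene Ndrg2 and asked how they act in wounds. Cultured DCs were grown with GM-CSF from bone marrow of wild-type C57BL/6 mice, and cells in suspension were taken. One culture was untreated, one received vitamin D3 (VD3) at 1e-06 M for 24 h from day 7, and in one Ndrg2 had been disrupted by nucleofection of Cas9 protein with guide RNAs (Ndrg2-KO). Wounds were splinted full-thickness excisional skin wounds of mice aged 6 weeks, covered with a pullulan-collagen hydrogel that held control DCs, Ndrg2-KO DCs or no cells (blank), and explanted on day 10 from 5 mice per group that were combined in 1 library. The untreated culture had not been nucleofected, so in the cultures an effect of nucleofection cannot be told apart from that of Ndrg2 loss. Control DCs of the wounds are called untreated in the labels and nucleofected with non-targeting guides in the study's methods. Seeded cells and cells of the host were not told apart here.

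Cells with at least 300 genes, fewer than 100000 UMIs and less than 10% mitochondrial UMIs were kept, which left 7257 to 8825 cells per culture and 1948 to 5681 per wound library. Median depth was 12089 to 16316 UMIs per cell in the cultures and 4415 to 10795 in the wounds. Any pair of libraries shared 1 to 19 cell barcodes. Each condition was 1 library, so differences between conditions could not be set against a spread between replicates, and p-values are not given. Levels are UMIs per 1000000 UMIs of the library or cluster (CPM), and the 95% intervals (exact Poisson for a level, exact conditional binomial for a log2 ratio, Clopper-Pearson for a share) cover counting error only. In a sum over cells, fewer cells of a type and less RNA per cell cannot be told apart. As checks of the labels, the VD3 target Cyp24a1, which encodes the enzyme that breaks vitamin D down, gave 36662 UMIs in the VD3 culture, 1 in the untreated and 0 in the Ndrg2-KO culture, and Ndrg2 gave 613, 165 and 127 UMIs in untreated, VD3 and Ndrg2-KO DCs. Ndrg2 gave 181, 164 and 115 UMIs in control DC, Ndrg2-KO DC and blank wounds and checks no wound label, because host cells carry an intact gene. Mature DC-like clusters with 6 to 8 of 8 mature DC markers were found in each culture, beside 2084 neutrophil-like and 135 basophil-like cells.

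In the GRCm38 annotation Hbegf (ENSMUSG00000024486) is on the minus strand of chromosome 18 from 36504927 to 36515805. Ereg (ENSMUSG00000029377, chromosome 5, 91074622 to 91093646) and Areg (ENSMUSG00000029378, chromosome 5, 91139599 to 91148432) lie next to each other in the same orientation, 45953 bases apart. Tgfa (ENSMUSG00000029999) is on chromosome 6 from 86195223 to 86275719, Egfr (ENSMUSG00000020122) on chromosome 11 from 16752203 to 16918158, and Adam17 (ENSMUSG00000052593) on the minus strand of chromosome 12 from 21323509 to 21373632.

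**Figure D1:**
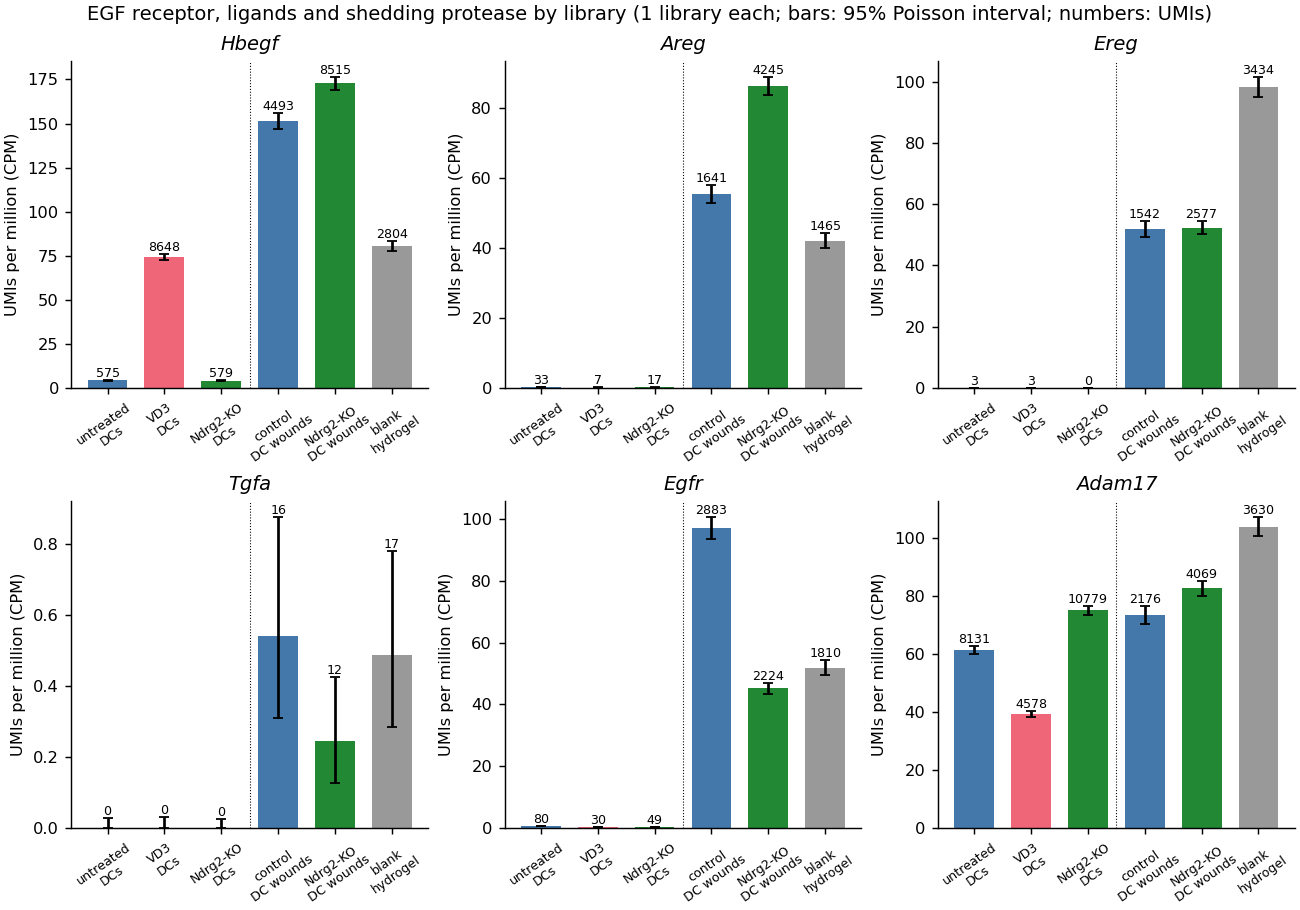
Level in CPM of the 6 genes in the 6 libraries, with 1 panel per gene on its own linear axis from 0. Bars are 1 library each, error bars are exact 95% Poisson intervals, and the number over a bar is the UMI count. Hbegf stands at 74.3 CPM in VD3 DCs beside 4.34 and 4.03 CPM in the other cultures, and Areg, Ereg and Egfr are near 0 in all 3 cultures.

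In cultured DCs, Hbegf was the only one of the 4 ligands with more than 100 UMIs in any library, and it was abundant only after VD3. Hbegf encodes heparin-binding EGF-like growth factor, a ligand that myeloid cells are known to make. Untreated DCs gave 575 Hbegf UMIs (4.34 CPM, interval 3.99 to 4.71), VD3 DCs 8648 (74.3 CPM, 72.7 to 75.8) and Ndrg2-KO DCs 579 (4.03 CPM, 3.71 to 4.37). The VD3 library stood far above the other cultures, whose intervals overlapped. VD3 DCs were 17.1-fold above untreated DCs (log2 ratio 4.10, interval 3.98 to 4.22) and 18.4-fold above Ndrg2-KO DCs. Of the 12296 genes whose UMIs in this pair of libraries summed to 100 or more, 31 had a higher ratio of VD3 to untreated.

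Loss of Ndrg2 did not go with the Hbegf level seen after VD3. The log2 ratio of Ndrg2-KO to untreated DCs was -0.11 (-0.27 to 0.06). Its direction depended on the filter for mitochondrial UMIs: among cells under 5% it was 0.63, with 1721 Ndrg2-KO and 3125 untreated cells left. Within the same filter Hbegf was still higher in VD3 DCs than in untreated DCs, with a log2 ratio of 3.58. Median mitochondrial shares were 5.3%, 5.6% and 6.6% in untreated, VD3 and Ndrg2-KO DCs, and their part in the Hbegf values was not tested.

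To compare shares of cells at equal depth, each cultured cell with at least 2000 UMIs was thinned to that number, which left out 472 untreated, 1149 VD3 and 134 Ndrg2-KO cells. A Hbegf UMI was then seen in 0.796% of untreated cells (0.598% to 1.04%), in 10.4% of VD3 cells and in 0.574% of Ndrg2-KO cells. Without thinning the shares were 6.26%, 34.9% and 5.05%. Even in the VD3 culture the transcript was uneven: the 10% of cells with most Hbegf held 59.7% of its UMIs.

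Clustering of the 3 cultures together, with the 6 genes and the other genes of the pathway left out of the clustering, placed Hbegf in particular VD3 cells. Most clusters came almost wholly from 1 library, so that cluster and treatment cannot be told apart for them. A cluster of 1445 VD3 cells led by Gdf15, a cytokine of the TGF-beta family, and Ms4a7, a gene of macrophages, carried 3586 Hbegf UMIs (126 CPM, 122 to 130). This was 41.5% of the library's Hbegf in 16.4% of its cells and 24.4% of its UMIs. Of the 10 macrophage markers examined 5 passed the marker rule both there and in the next cluster, and both are called by their leading genes. A second cluster of 1082 VD3 cells, led by the granule genes Elane, Prtn3 and Mpo of early myeloid cells and also passing for 6 of 6 proliferation and 7 of 8 granulocyte or monocyte markers, carried 3534 UMIs (130 CPM, 126 to 134), or 40.9% of the Hbegf in 12.3% of the cells. Cells like type 1 conventional DCs (cDC1-like, 147 cells) reached 120 CPM (105 to 136) with 235 UMIs.

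Mature DC-like cells, the largest VD3 cluster, held little of it. They were 37.3% of the cells and 42.4% of the UMIs but 10.8% of the Hbegf UMIs, at 18.9 CPM (17.7 to 20.2). At 2000 UMIs per cell the share with a Hbegf UMI was 2.65% (2.13% to 3.26%) in mature DC-like cells, 23.6% (21.4% to 25.9%) in the Gdf15 Ms4a7 cluster, 21.4% (19% to 24%) in the Elane Mpo cluster and 21.1% (14.8% to 28.6%) in cDC1-like cells. Unthinned, these shares were 19.9%, 79.7%, 83.0% and 72.8%, at median depths of 13700, 16659, 22537 and 12124 UMIs. Among clusters with at least 50 VD3 cells the lowest level was 15.0 CPM (11 UMIs), in a shallow cluster of 174 cells led by Gm26917.

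**Figure D2:**
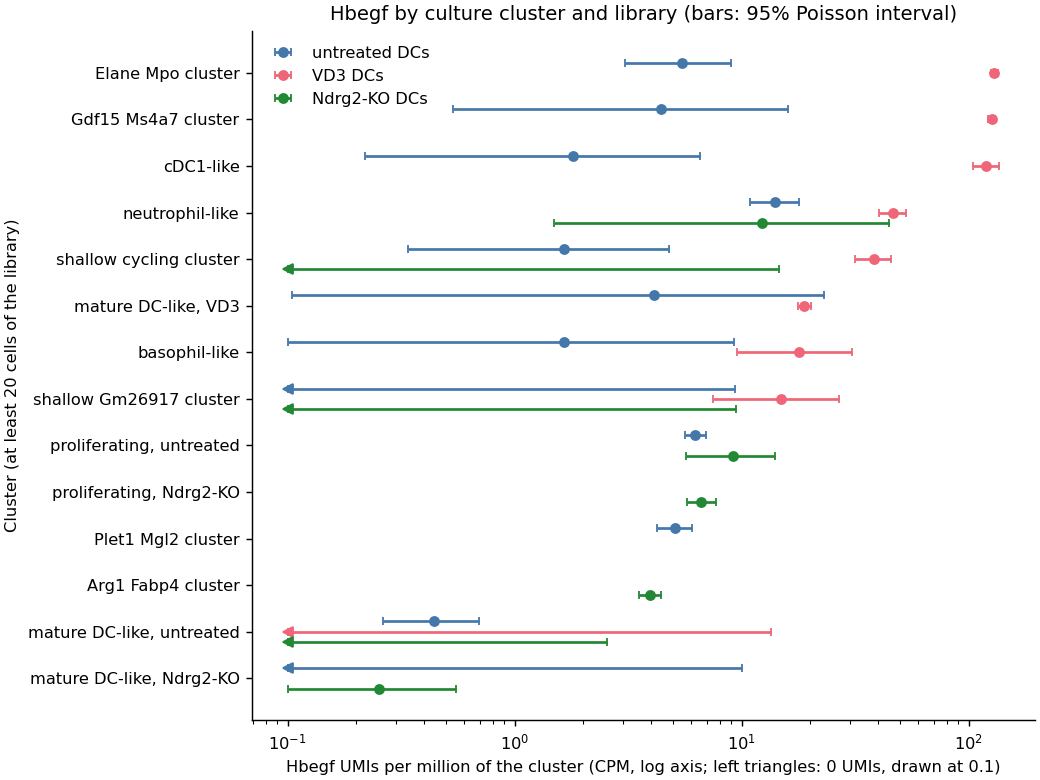
Hbegf in CPM of the culture clusters reported here, by library, on a log axis. Points are 1 library's cells of the cluster (at least 20 cells), bars are exact 95% Poisson intervals, left triangles mark 0 UMIs drawn at 0.1, and lower bounds under 0.1 are also drawn at 0.1. VD3 cells of the Elane Mpo, Gdf15 Ms4a7 and cDC1-like clusters sit at 120 to 130 CPM, whereas the points of untreated cells sit at or under 14 CPM in every cluster.

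The higher Hbegf of VD3 cells was also seen within clusters that held cells of both cultures. In cDC1-like cells 235 Hbegf UMIs stood against 2 in untreated cells (log2 ratio 6.05, 4.18 to 9.10). In the Elane Mpo cluster the untreated level was 5.45 CPM and the log2 ratio 4.57 (3.85 to 5.41). Neutrophil-like cells, which had the highest untreated level at 14 CPM, showed the smallest ratio: they stood at 46.4 CPM after VD3 (log2 ratio 1.73, 1.32 to 2.15). The shallow cycling cluster gave 4.54 (2.95 to 6.83), with 1.64 CPM in untreated cells and 38.1 CPM in VD3 cells. Mature DC-like cells of the cultures fell into separate clusters by library, and taken as a class they gave 19 Hbegf UMIs (0.459 CPM) in untreated and 932 (18.8 CPM) in VD3 DCs. Thus Hbegf was also higher after VD3 in the class that held the lowest untreated level of these 5.

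Hbegf was compared with the 2 genes that led the VD3 cluster cell by cell. Among VD3 cells thinned to 2000 UMIs, a Hbegf UMI was found in 22% (16.6% to 28.2%) of 209 cells with both Gdf15 and Ms4a7, in 21.9% (19.8% to 24.2%) of 1433 cells with Gdf15 alone, in 18.5% (13.1% to 25.0%) of 178 cells with Ms4a7 alone, and in 6.95% (6.31% to 7.63%) of 5856 cells with neither. The intervals of the first 3 groups overlapped, and all lay above that of cells with neither. In the same order Hbegf stood at 122, 131, 104 and 40.8 CPM. Cells with neither UMI still held 50.9% of the Hbegf UMIs. Thinning lowered the share of VD3 cells with a Gdf15 UMI from 35.8% to 21.4%, and with a Ms4a7 UMI from 16.3% to 5.04%. A cell without a UMI of a gene may thus still have expressed it, and these groups do not separate expressing cells from others. Gdf15 itself stood at 534 CPM in its own cluster, 408 in the Elane Mpo cluster, 303 in cDC1-like cells and 18.1 in mature DC-like cells, whereas Ms4a7 stood at 110, 56.4, 4.07 and 3.41 CPM. In cDC1-like cells high Hbegf therefore went with Gdf15 and with little Ms4a7.

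In the untreated and Ndrg2-KO cultures the few Hbegf UMIs lay mostly outside mature cells. Proliferating cells gave 6.25 CPM in the untreated and 6.64 CPM in the Ndrg2-KO culture. Mature DC-like cells gave 0.442 and 0.253 CPM, the lowest levels of the cultures among clusters with a UMI. Ndrg2-KO cells of the large Arg1 Fabp4 cluster stood at 3.95 CPM.

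The 5 genes most like Hbegf over 25 groups of culture cells (1 library's cells of 1 cluster, at least 50 cells) were Tbc1d2b (Pearson r 0.874 on log2 CPM), Micall2 (0.869), Cisd2 (0.853), Cyp24a1 (0.853) and Orai1 (0.849). These groups share libraries and total depth, and r is a description.

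The other ligands were close to absent from cultured DCs. Areg, which encodes amphiregulin, gave 33, 7 and 17 UMIs in untreated, VD3 and Ndrg2-KO DCs (0.249, 0.0601 and 0.118 CPM), 20 of the 33 in proliferating untreated cells. Ereg, which encodes epiregulin, gave 3, 3 and 0 UMIs, and Tgfa, which encodes TGF-alpha, gave 0 in all 3. Such counts do not carry a comparison between cultures. With 0 UMIs the limit of 3 counts corresponds to 0.0226 CPM in the untreated library.

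Egfr was at the edge of detection in the cultures. It gave 80 UMIs (0.603 CPM) in untreated, 30 (0.258 CPM) in VD3 and 49 (0.341 CPM) in Ndrg2-KO DCs. The log2 ratio to untreated DCs was -1.23 (-1.89 to -0.61) for VD3 and -0.82 (-1.37 to -0.29) for Ndrg2-KO DCs. No Egfr UMI was counted in 2084 neutrophil-like cells, 226 cDC1-like cells or 135 basophil-like cells, and 40 of the 80 untreated UMIs lay in proliferating cells, which held 41.0% of all UMIs of that library.

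Adam17, by contrast, was found in every culture and cluster. The protease gave 8131 UMIs (61.3 CPM, 60.0 to 62.7) in untreated, 4578 (39.3 CPM, 38.2 to 40.5) in VD3 and 10779 (75.1 CPM, 73.6 to 76.5) in Ndrg2-KO DCs. VD3 DCs were the lowest and Ndrg2-KO DCs the highest, with no overlap of intervals. The log2 ratio to untreated DCs was -0.64 (-0.69 to -0.59) for VD3 and 0.29 (0.25 to 0.33) for Ndrg2-KO DCs, both short of 2-fold. Mature DC-like cells carried little Adam17: 20.3 CPM in the untreated, 19.0 in the VD3 and 32.9 in the Ndrg2-KO culture. All mature DC-like cells together were 36.4% of untreated, 37.5% of VD3 and 25.0% of Ndrg2-KO cells. In the VD3 library Adam17 stood at 25.5 CPM (50 UMIs) in cDC1-like cells, in which Hbegf was also high. It stood at 59.3 CPM in the Gdf15 Ms4a7 cluster and 56.3 CPM in the Elane Mpo cluster, the other clusters with high Hbegf. Higher levels were seen in the untreated Plet1 Mgl2 cluster (105 CPM), in proliferating cells (76.7 untreated, 91.3 Ndrg2-KO) and in the Ndrg2-KO Arg1 Fabp4 cluster (83.3 CPM). Neutrophil-like cells differed little between cultures (72.8, 66.1 and 86.1 CPM, with 14 UMIs behind the last). The gene most like Adam17 over the 25 culture groups was Adam10 (r 0.963), a related sheddase, followed by Patl1 (0.954) and Smcr8 (0.952).

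Counted over genes with at least 100 UMIs in a pair of cultures, the 6 genes gave these calls past 2-fold. Between VD3 and untreated DCs 3 of the 6 could be counted: Hbegf was higher and Egfr lower. The Egfr call rested on 30 against 80 UMIs, its interval reached above -1 on the log2 scale, and as a mean over cells the log2 ratio was -0.69, short of 2-fold. Of all 12296 genes 3.68% were at least 2-fold higher and 6.61% at least 2-fold lower, and the median log2 ratio was -0.08 over all genes and -0.64 over the 3. Between Ndrg2-KO and untreated DCs 0 of 3 passed, beside 9.12% of all genes higher and 7.94% lower. Between Ndrg2-KO and VD3 DCs 2 could be counted, with Hbegf lower and Adam17 at a log2 ratio of 0.93 (0.88 to 0.98), beside 12.1% of all genes higher and 8.08% lower.

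The pathway around them was examined in 67 further genes: other ligands and receptors of the family, sheddases and cofactors, adaptors, inhibitors, and immediate early genes that growth factor signalling is known to switch on. Between VD3 and untreated DCs 59 had enough UMIs, of which 3 were higher past 2-fold and 3 lower, with a median log2 ratio of -0.01. Of all genes 3.68% were higher and 6.61% lower, and both pathway counts lay near those shares. The higher ones were the ligands Nrg2 (602 UMIs against 69, log2 ratio 3.31, 2.95 to 3.69) and Btc (101 against 47, 1.29) and the protease Adam19 (1.32). The lower ones were the proteases Adam8 (-1.33) and Adam15 (-1.18) and the transcription factor Fosl1 (-1.14). Neuregulin 2, the product of Nrg2, is known as a ligand of ErbB3 and ErbB4 and not of the EGF receptor itself.

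Immediate early genes made up 7 of the 12 pathway genes past 2-fold between Ndrg2-KO and untreated DCs. In that pair 58 genes were counted, 4 higher (Adam9 1.36, Adam12 1.47, Gab1 1.63 and Spry2 1.59) and 8 lower. The lower ones were the tetraspanin gene Cd82 (-1.35) and 7 of the 13 immediate early genes: Fosb (-4.94), Egr3 (-1.89), Fos (-1.83), Egr1 (-1.79), Ier2 (-1.76), Phlda1 (-1.51) and Ier3 (-1.40). The list's median was -1.40, beside -0.06 for all genes, of which 9.12% were higher and 7.94% lower past 2-fold. Against VD3 DCs 9 of 13 were lower, beside 8.08% of all genes, and Fosl1 was higher, with a median of -1.61. Of all 59 genes counted in that pair, 9 were higher and 14 lower, with a median of 0.14, beside 12.1% of all genes higher and 8.08% lower. The higher ones were Adam12 (2.34), Adam8 (1.91), Gab1 (1.74), Adam9 (1.5), Spry1 (1.30), Fosl1 (1.26), Spry2 (1.20), Mapk3 (1.13) and Cd9 (1.0). Beside immediate early genes, Adam19 (-1.88), Cd82 (-1.53) and Dusp4 (-1.14) were lower, and Fosb (-5.58), Egr3 (-2.66), Fos (-2.43), Ier3 (-2.36), Egr1 (-2.22), Ier2 (-2.01), Phlda1 (-1.61), Jun (-1.57) and Junb (-1.57) were the immediate early genes concerned. Nrg2 (-3.81) and Btc (-3.50) were lower in Ndrg2-KO than in VD3 DCs. Only the Ndrg2-KO culture had been nucleofected, and Egfr was at the edge of detection in every culture. The cause of the lower immediate early genes was not tested.

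In the wounds all 4 ligands, the receptor and the protease were counted, and the cells that carried them differed from gene to gene. Hbegf lay mostly in macrophage-like cells, Ereg in fibroblast-like cells and, in Ndrg2-KO DC wounds, in an Arg1 Mmp12 cluster, Areg in fibroblast-like cells and several myeloid and lymphoid groups, and Egfr almost wholly in fibroblast-like cells. The 3 wound libraries were clustered together into 12 clusters. The make-up of the libraries differed strongly. Neutrophil-like cells were 23.6% of control DC, 50.9% of Ndrg2-KO DC and 45.8% of blank wound cells, and fibroblast-like cells 24.7%, 8.80% and 9.99% of cells and 52.1%, 29.4% and 30.9% of UMIs. A level summed over a whole wound library therefore reads the make-up and the level per cell together.

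**Figure D3:**
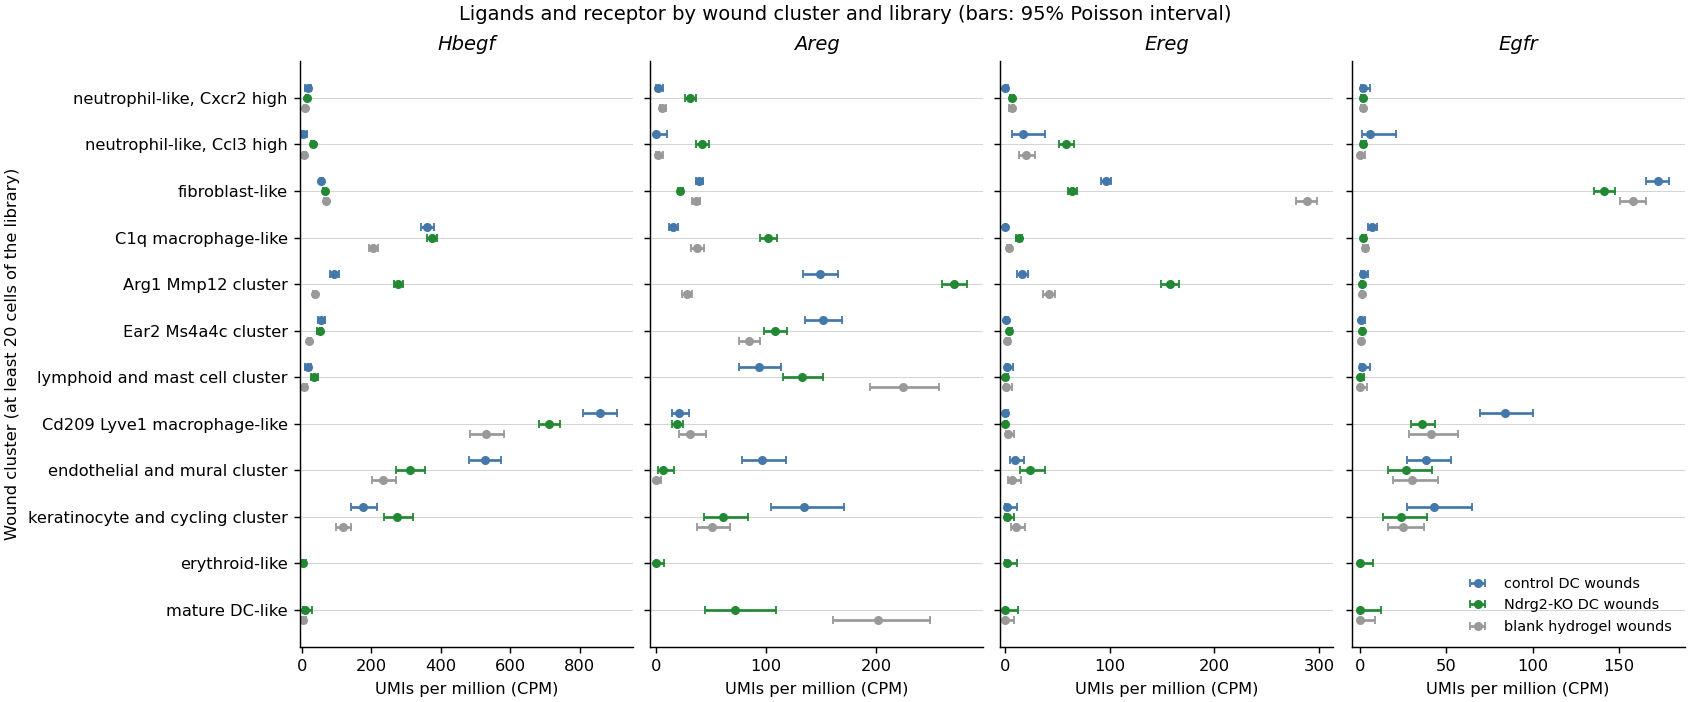
Hbegf, Areg, Ereg and Egfr in CPM of each wound cluster, by library, each panel on its own linear axis. Points are 1 library's cells of the cluster (at least 20 cells) and bars are exact 95% Poisson intervals. Hbegf is highest in Cd209 Lyve1 macrophage-like cells of all 3 libraries (532 to 859 CPM), and the Arg1 Mmp12 cluster of Ndrg2-KO DC wounds stands apart for Hbegf, Areg and Ereg.

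Hbegf gave 4493 UMIs in control DC wounds (151 CPM, 147 to 156), 8515 in Ndrg2-KO DC wounds (173 CPM, 169 to 177) and 2804 in blank wounds (80.3 CPM, 77.4 to 83.4). Both kinds of wound with DCs were above blank wounds. Ndrg2-KO DC wounds were 2.15-fold above blank wounds (log2 ratio 1.11, 1.04 to 1.17), and 136 of 12248 genes had a higher ratio. Blank wounds were below control DC wounds (log2 ratio -0.91, -0.98 to -0.85). Between the wounds with DCs the log2 ratio of Ndrg2-KO to control was 0.19 (0.14 to 0.24), and it turned to -0.34 when every cell was given the same weight. Thinned to 1000 UMIs, which left out 25, 95 and 65 shallower cells, 8.68% of cells in control DC, 7.05% in Ndrg2-KO DC and 4.07% in blank wounds had a Hbegf UMI (30.3%, 21.4% and 15.9% unthinned).

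Macrophage-like cells were the main wound source of Hbegf. They were 20.2%, 12.3% and 13.2% of the cells in control DC, Ndrg2-KO DC and blank wounds and 18.2%, 18.9% and 15.9% of the UMIs, but held 58.9%, 52.6% and 50.6% of the Hbegf UMIs. For Hbegf, Areg, Ereg, Egfr and Adam17 no share of a gene's wound UMIs that lay in a class of cells had an interval reaching more than 2.4 percentage points from it. Resident-type macrophage-like cells marked by Cd209 genes and Lyve1 (77, 138 and 51 cells) had the highest level in every library, at 859, 713 and 532 CPM. After thinning, 53.2% (41.5% to 64.7%), 43.5% (35.1% to 52.2%) and 43.1% (29.4% to 57.8%) of them had a Hbegf UMI. Macrophage-like cells high in C1q genes stood at 361, 375 and 205 CPM. Hbegf in the C1q cells was thus near equal in both wounds with DCs (log2 ratio 0.06, -0.04 to 0.15) and lower in blank wounds than in control DC wounds (-0.81, -0.93 to -0.69).

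Beside them, the Arg1 Mmp12 cluster held 4.94% of the Hbegf in control DC, 26.0% in Ndrg2-KO DC and 7.38% in blank wounds. The endothelial and mural cluster stood at 527, 312 and 234 CPM and held 11.4%, 2.62% and 6.42% of the Hbegf. Fibroblast-like cells stood at 56.0, 65.6 and 69.0 CPM, and through their depth held 19.3%, 11.2% and 26.5%. Lower levels were seen in other groups, and how much of them was RNA from outside the cell was not tested. Neutrophil-like cells with high Cxcr2 stood at 16.4, 14.2 and 9.08 CPM, and 64 erythroid-like cells of Ndrg2-KO DC wounds at 2.06 CPM. Thinned neutrophil-like cells with a Hbegf UMI were 1.36%, 0.820% and 0.559%, against medians of 3218, 2717 and 3267 UMIs before thinning. Mature DC-like cells of the wounds, 69 in all, gave 0, 3 and 1 Hbegf UMIs.

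The keratinocyte, endothelial and lymphoid clusters were mixed, so their cells were called singly from marker lists, a step chosen after the data were seen. Of the cells called endothelial, 55 gave Hbegf at 494 CPM (456 to 535), at 625, 470 and 350 CPM in control DC, Ndrg2-KO DC and blank wounds. Keratinocytes were few, 35 cells in all, and gave Hbegf at 379 CPM (331 to 432). T cells, 410 in all, gave 12 CPM. The 3 genes most like Hbegf over 29 wound groups were Arc (r 0.924), itself an immediate early gene, Slc25a10 (0.913) and Sbf2 (0.909).

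**Figure D4:**
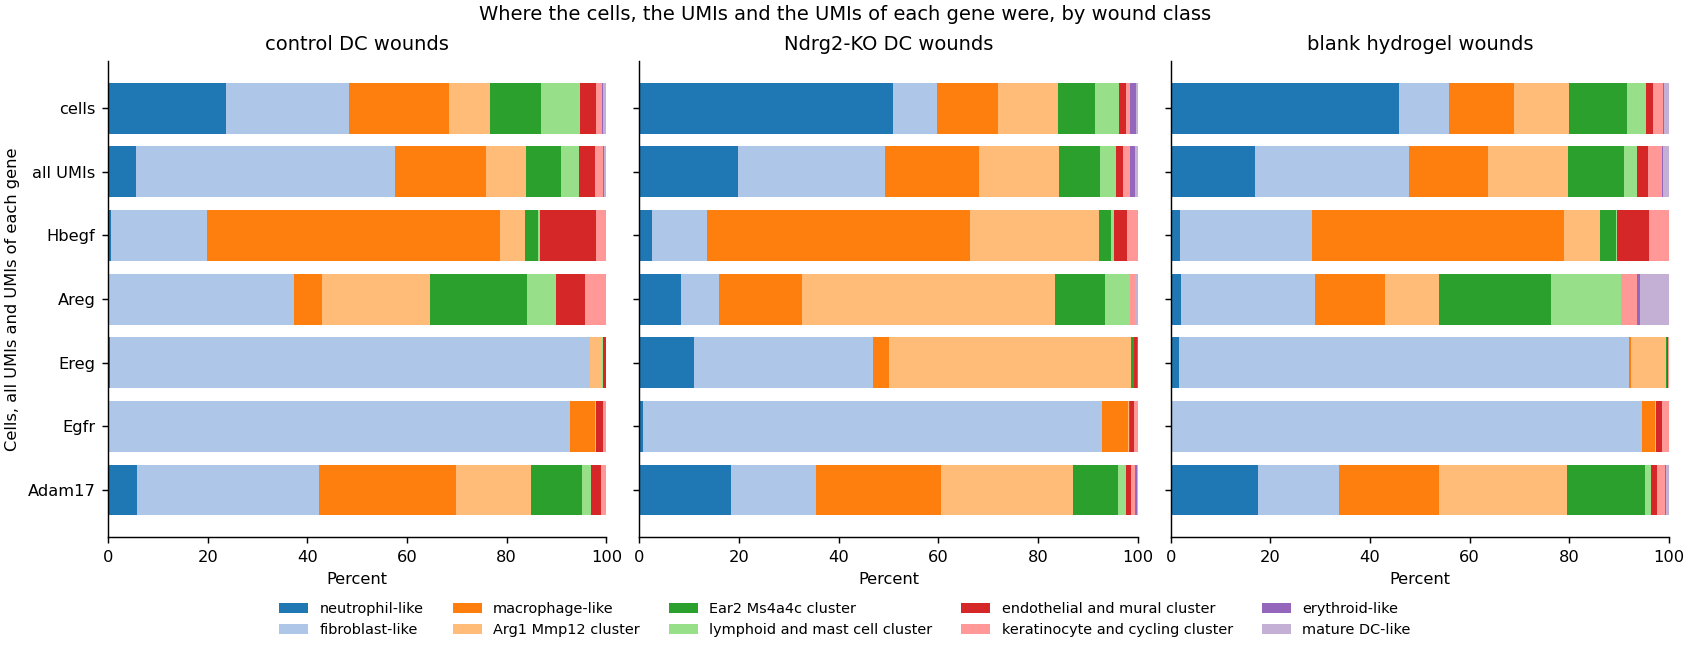
Shares in percent of the cells, of all UMIs and of each gene's UMIs that lay in each class of wound cells, with 1 panel per library. Stacked bars add to 100 and colours are classes. Fibroblast-like cells held over 90% of Egfr in each library, macrophage-like cells more than 50% of Hbegf, and the share of Ereg in fibroblast-like cells was 96.4%, 35.9% and 90.4% in control DC, Ndrg2-KO DC and blank wounds.

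The Arg1 Mmp12 cluster differed between wound libraries for 3 ligands together. Its leading genes were Mmp12, Mmp13 and Arg1, genes that macrophages are known to express in injured tissue. It held 160, 676 and 371 cells of control DC, Ndrg2-KO DC and blank wounds. Of the marker lists examined, only that of premature DCs passed the marker rule in it (4 of 8 markers, Mmp12 among the list), and the macrophage list did not. The cluster is called by its leading genes, and whether its cells were seeded or of the host was not tested. Hbegf stood at 93.5, 278 and 36.6 CPM there, Areg at 149, 271 and 28.1 CPM, and Ereg at 15.6, 158 and 41.6 CPM. All 3 ligands were highest in Ndrg2-KO DC wounds. The log2 ratios of Ndrg2-KO to control DC wounds were 1.57 (1.37 to 1.78) for Hbegf, 0.87 (0.70 to 1.03) for Areg and 3.34 (2.87 to 3.85) for Ereg. Against blank wounds they were 2.93 (2.72 to 3.14), 3.27 (3.04 to 3.51) and 1.92 (1.72 to 2.13). Those comparisons share the Ndrg2-KO DC wound library. Adam17 did not stand apart there, at 138, 136 and 165 CPM.

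Among cells of that cluster thinned to 1000 UMIs, Areg was seen in 2.5% (0.685% to 6.28%), 10.4% (8.20% to 13%) and 2.16% (0.935% to 4.20%), and Ereg in 1.25% (0.152% to 4.44%), 7.58% (5.69% to 9.84%) and 2.70% (1.30% to 4.90%). Unthinned shares were 13.1%, 23.1% and 8.36% for Areg and 5.62%, 17.2% and 8.36% for Ereg, at median depths of 12819, 10946 and 13943 UMIs. For comparison, 0.542%, 0.601% and 0.399% of thinned Cxcr2-high neutrophil-like cells had an Areg UMI. At a finer resolution the cluster lost its cells high in Ppbp and Pf4 to another cluster, and the remaining Mmp12 cells (102, 521 and 184) still gave Ereg at 14.6, 195 and 39.3 CPM, Hbegf at 91.7, 304 and 39.9 CPM, and Areg at 124, 305 and 36.0 CPM. The Ppbp cluster (81, 240 and 264 cells) passed for 10 of 10 macrophage markers. Together with the Mmp12 cells it held more cells than the Arg1 Mmp12 cluster in each library, so other cells had joined. In the Ppbp cluster Areg stood at 1.99, 154 and 21.0 CPM, Hbegf at 142, 182 and 62.2 CPM, and Ereg at 0.992, 42 and 35.2 CPM. The Ereg intervals of Ndrg2-KO DC and blank wounds overlapped there, and the difference in Hbegf between the wounds with DCs was smaller than in the Mmp12 cells.

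Areg gave 1641 UMIs in control DC wounds (55.3 CPM, 52.7 to 58.0), 4245 in Ndrg2-KO DC wounds (86.2 CPM, 83.6 to 88.8) and 1465 in blank wounds (42 CPM, 39.9 to 44.2). Amphiregulin is known as a low-affinity ligand that type 2 immune cells and regulatory T cells supply to injured tissue. Its level was highest in Ndrg2-KO DC wounds, 2.05-fold above blank wounds (log2 ratio 1.04, 0.95 to 1.13) and 0.64 above control DC wounds on the log2 scale (0.56 to 0.72). The Areg UMIs came from few cells: 10 cells held 42.9%, 18.2% and 35.2% of them. Without those cells the levels were 32.1, 70.8 and 27.4 CPM, in the same order.

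The sources of Areg changed from library to library. In control DC wounds fibroblast-like cells held 37.2% of the Areg UMIs, the Arg1 Mmp12 cluster 21.5% and the Ear2 Ms4a4c cluster, myeloid cells high in class II MHC genes, 19.5%. In Ndrg2-KO DC wounds the Arg1 Mmp12 cluster held 50.7%, macrophage-like cells 16.8%, the Ear2 Ms4a4c cluster 10.2%, neutrophil-like cells 8.29% and fibroblast-like cells 7.59%. In blank wounds fibroblast-like cells again led with 26.9%, followed by the Ear2 Ms4a4c cluster (22.5%), the lymphoid and mast cell cluster (14.1%), macrophage-like cells (13.9%) and the Arg1 Mmp12 cluster (10.9%). C1q macrophage-like cells gave Areg at 15.8, 102 and 37.8 CPM (log2 ratio of Ndrg2-KO to control DC wounds 2.69, 2.32 to 3.09). The Ear2 Ms4a4c cluster ran the other way between the wounds with DCs, at 152, 108 and 84.7 CPM. Cxcr2-high neutrophil-like cells gave 2.34, 31.4 and 6.20 CPM, from 3, 172 and 28 UMIs.

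In the lymphoid and mast cell cluster Areg was instead highest in blank wounds, at 93.3, 133 and 224 CPM. The part of this cluster and of the other mixed clusters that single marker lists called T cells gave 68.9 (52.8 to 88.3), 141 (121 to 164) and 102 (78.8 to 130) CPM, so that blank wounds were not highest in them. Cells called by no single list (27, 41 and 45) gave 183, 209 and 622 CPM. NK-like cells, 72 in all, gave 4 Areg UMIs. Mature DC-like cells gave Areg at 72.0 CPM (22 UMIs) in Ndrg2-KO DC wounds and 201 CPM (85 UMIs) in blank wounds, and 2 UMIs in the 14 cells of control DC wounds. Erythroid-like cells gave 0 Areg UMIs in 64 cells of Ndrg2-KO DC wounds and 8 in 9 cells of blank wounds. The genes most like Areg were Tiam1 (r 0.851), Pcgf5 (0.837) and Fam177a (0.833).

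Ereg gave 1542 UMIs in control DC wounds (52.0 CPM, 49.4 to 54.6), 2577 in Ndrg2-KO DC wounds (52.3 CPM, 50.3 to 54.4) and 3434 in blank wounds (98.4 CPM, 95.1 to 102). Epiregulin is known as a ligand of both the EGF receptor and ErbB4. Blank wounds were highest, and the wounds with DCs could not be told apart (log2 ratio 0.01, -0.08 to 0.10). Ndrg2-KO DC wounds were below blank wounds (log2 ratio -0.91, -0.98 to -0.84), but with every cell weighted equally the value was 0.48. A few cells carried much of the transcript: 10 cells held 47.6%, 28.0% and 44.8% of the Ereg UMIs, and 1 cell of the blank wounds held 297. Without the 10 cells the levels were 27.7, 37.9 and 55.2 CPM, so that Ndrg2-KO DC wounds then stood above control DC wounds.

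Equal Ereg levels in both wounds with DCs came from different cells. Fibroblast-like cells held 96.4% of Ereg in control DC, 35.9% in Ndrg2-KO DC and 90.4% in blank wounds, at 96.1, 64.0 and 288 CPM. Their log2 ratio was 1.58 (1.49 to 1.67) for blank and -0.59 (-0.71 to -0.47) for Ndrg2-KO, each against control DC wounds, and these ratios share the control library. In Ndrg2-KO DC wounds the Arg1 Mmp12 cluster held 48.6% of Ereg, against 2.40% and 6.84% in control DC and blank wounds, and neutrophil-like cells held 10.9%. Ccl3-high neutrophil-like cells stood at 17.3, 57.9 and 19.7 CPM. At equal depth 4.57% (2.89% to 6.84%), 3.80% (2.30% to 5.87%) and 7.35% (4.82% to 10.7%) of fibroblast-like cells had an Ereg UMI. Cd209 Lyve1 macrophage-like cells, the highest in Hbegf, gave 0, 0 and 2 Ereg UMIs, and mature DC-like cells gave 0.

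At the finer resolution Ereg differed between groups of stromal cells. A cluster led by Crabp1 that carried all 6 proliferation markers and too few fibroblast markers to be named (30, 64 and 49 cells) gave 184, 132 and 603 CPM, whereas the large fibroblast cluster (449, 252 and 290 cells) gave 87.1, 67.6 and 187 CPM. The 603 CPM rested on 1590 UMIs in 49 cells, and 10 cells held 44.8% of all Ereg UMIs of blank wounds. How far these cluster levels rest on those cells was not examined. Another fibroblast cluster, led by Reg3g, Ngfr and Pgr, was found almost only in Ndrg2-KO DC wounds (184 of 187 cells) and gave 20.5 CPM. The genes most like Ereg over the wound groups were Fam162a (r 0.822), the neutrophil-attracting chemokine Cxcl5 (0.808) and Dnmt3l (0.799).

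Tgfa was scarce, with 16, 12 and 17 UMIs in control DC, Ndrg2-KO DC and blank wounds (0.539, 0.244 and 0.487 CPM, intervals overlapping). Its 45 UMIs lay in the lymphoid and mast cell cluster (12), the keratinocyte and cycling cluster (12), the endothelial and mural cluster (11), fibroblast-like cells (7) and Cd209 Lyve1 macrophage-like cells (3). None lay in neutrophil-like cells, C1q macrophage-like cells, the Arg1 Mmp12 cluster or the Ear2 Ms4a4c cluster. Single cells called keratinocytes held 11 of the 45 at 18.5 CPM (9.25 to 33.1), the highest level of Tgfa in any called group of the mixed clusters. TGF-alpha is known as a keratinocyte ligand of the receptor.

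Egfr gave 2883 UMIs in control DC wounds (97.2 CPM, 93.6 to 101), 2224 in Ndrg2-KO DC wounds (45.2 CPM, 43.3 to 47.1) and 1810 in blank wounds (51.9 CPM, 49.5 to 54.3). Control DC wounds stood highest, with a log2 ratio of -1.11 (-1.19 to -1.03) for Ndrg2-KO and -0.91 (-0.99 to -0.82) for blank wounds against them. Fibroblast-like cells held 92.6%, 92.2% and 94.2% of the Egfr UMIs in the 3 libraries, and within them Egfr stood at 173, 142 and 158 CPM. Inside fibroblast-like cells the log2 ratios against control DC wounds were -0.29 (-0.37 to -0.20) and -0.13 (-0.21 to -0.04). The difference of whole libraries was thus larger than that within the cells that carried the receptor, and fibroblast-like cells were 52.1% of UMIs in control DC wounds against 29.4% and 30.9%. After thinning, 13.9% (11% to 17.4%), 13.4% (10.5% to 16.7%) and 13.5% (10.1% to 17.6%) of fibroblast-like cells had an Egfr UMI (95.6%, 89.2% and 93.2% unthinned, at medians of 30340, 27095 and 28493 UMIs), whereas 0%, 0.219% and 0.0799% of Cxcr2-high neutrophil-like cells did.

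The Reg3g Ngfr Pgr fibroblast cluster of Ndrg2-KO DC wounds gave Egfr at 226 CPM (213 to 240) and held 49.1% of that library's Egfr UMIs. The large fibroblast cluster gave 181, 110 and 188 CPM, and the proliferating Crabp1 cluster 91.5, 72.7 and 66.0 CPM. In the large cluster Egfr was thus lowest in Ndrg2-KO DC wounds, whereas the Reg3g cells, hardly found in the other libraries, stood above it.

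Egfr was also counted in Cd209 Lyve1 macrophage-like cells, at 83.8, 36.0 and 40.8 CPM (258 UMIs in all). Free RNA of fibroblasts was checked beside it. The 8 fibroblast markers together stood at 189 CPM in these macrophage-like cells, within the 121 to 400 CPM of the other immune and erythroid clusters, against 83140 CPM in fibroblast-like cells. Per 1000 fibroblast-marker UMIs there were 264 Egfr UMIs in the Cd209 Lyve1 cells, 15.6 in C1q macrophage-like cells and 1.90 in fibroblast-like cells. After thinning, 5.20% (1.43% to 12.8%), 5.80% (2.54% to 11.1%) and 3.92% (0.479% to 13.5%) of the Cd209 Lyve1 cells had an Egfr UMI. The cells with the highest Hbegf of the wounds thus also carried Egfr RNA, at a lower level than fibroblast-like cells. Keratinocytes called singly gave Egfr at 62.3 CPM (43.9 to 85.9) from 35 cells, T cells 0 UMIs in 410 cells and mature DC-like cells 0 in 69. The genes most like Egfr were Myh10 (r 0.940), Thrb (0.936) and C1qtnf1 (0.935).

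Adam17 was spread over all wound cells. It gave 2176 UMIs in control DC wounds (73.3 CPM, 70.3 to 76.5), 4069 in Ndrg2-KO DC wounds (82.6 CPM, 80.1 to 85.2) and 3630 in blank wounds (104 CPM, 101 to 107). Blank wounds were highest, with a log2 ratio to control DC wounds of 0.50 (0.43 to 0.58). Levels were highest in myeloid groups: 138, 136 and 165 CPM in the Arg1 Mmp12 cluster, 120, 124 and 140 CPM in C1q macrophage-like cells and 106, 93.7 and 147 CPM in the Ear2 Ms4a4c cluster. Fibroblast-like cells stood at 51.4, 47.9 and 55.0 CPM and the lymphoid and mast cell cluster at 36.6, 39.7 and 43.5 CPM. The largest difference of Adam17 within a wound cluster of over 100 cells per library was in Cxcr2-high neutrophil-like cells, at 64.6, 63.4 and 105 CPM (log2 ratio of Ndrg2-KO to blank wounds -0.72, -0.93 to -0.52). Most like Adam17 were Sqstm1 (r 0.898), Ifngr2 (0.894) and Mdm2 (0.893).

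Counted past 2-fold, with 5 of the 6 genes over 100 UMIs in each pair of wound libraries, Egfr alone was lower in Ndrg2-KO than in control DC wounds and 0 were higher, beside 3.92% of 12207 genes higher and 5.28% lower. Blank against control DC wounds gave 0 in either direction, beside 3.06% and 3.17% of 11916 genes, although Hbegf was lower past 2-fold as a mean over cells (log2 ratio -1.305). Ndrg2-KO DC against blank wounds gave Hbegf and Areg higher and 0 lower, beside 1.39% of 12248 genes higher and 1.32% lower. Both calls lay near the threshold: Hbegf fell short of 2-fold as a mean over cells (log2 ratio 0.96), Areg fell short with a lower limit of 300 UMIs per cell in place of 300 genes (0.96), and the interval of Areg reached below 2-fold. The median log2 ratio over the 5 genes was 0.17, -0.40 and -0.20 in these pairs, beside -0.14, -0.03 and -0.10 over all genes.

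Of the other pathway genes 60 were counted between wounds, of which 2 were higher and 4 lower past 2-fold in Ndrg2-KO than in control DC wounds, beside 3.92% and 5.28% of all genes. Cd9 (1.43), a tetraspanin that binds the HB-EGF precursor, and Dusp4 (1.10), a phosphatase of MAP kinases, were the higher ones, and Spry1 (-1.42), Myc (-1.31), Lrig3 (-1.15) and Adam12 (-1.12) were lower. Cd9 (1.11) was also higher and Adam12 (-1.10), Spry1 (-1.05) and Myc (-1.05) lower in blank than in control DC wounds, beside 3.06% of all genes higher and 3.17% lower. These pairs share the control library, in which fibroblast-like cells were more frequent, and the part of that in the values was not tested. Ndrg2-KO DC against blank wounds gave 0 of 60 in either direction, beside 1.39% of all genes higher and 1.32% lower.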

How the data were processed

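Counts of UMIs per gene and cell barcode were deposited by the authors as filtered matrices, 1 per library. Matrix headers name Cell Ranger 3.1.0 for the cultures and 6.0.0 for the wounds. The submitters' notes name Cell Ranger, Seurat 3.1.1 and the build mm9, whereas gene identifiers match the mm10 annotation used for the coordinates (GRCm38). The 6 genes and the pathway lists were chosen with earlier results of these data known.

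Cells were filtered as in the report, and doublets were kept. Scrublet (scanpy 1.11.5) called at most 0.873% of a library, and whether it missed doublets was not tested. UMIs were summed over cells and scaled to 1000000 (CPM). Ratios, and calls at 2-fold, used genes whose UMIs summed to 100 or more over the pair. A total of 0 was read against a limit of 3 counts. Cultures and wounds were clustered separately in Seurat 5.3.0 (R 4.3.3), with 2000 variable genes, 15 principal components, 15 neighbours and resolution 0.5. A name ending in "-like" needed at least 3 markers of a list (2-fold above the others, 50 CPM). Clusters that passed this but carried several lists, or were led by genes outside the list, were named by hand from leading genes (among them the Arg1 Fabp4, Gdf15 Ms4a7, Elane Mpo, Plet1 Mgl2, Arg1 Mmp12 and Ear2 Ms4a4c clusters). Genes named besides the 6 were pathway genes past 2-fold and, by Pearson correlation of log2(CPM+1), the 5 most like Hbegf in the cultures and the 3 most like the others. Intervals (SciPy 1.17.1) were computed for simulated Poisson counts, where they covered the ratio of 93.5% to 97.5% of 200 changed genes per comparison. Such counts follow the model that the intervals assume, so this checks the computation only. It cannot show how the intervals hold where few cells carry much of a gene. The levels of 1 culture cluster are not reported here.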

Additional observations from a re-analysis of the deposited data

How the results depend on the processing

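No paired analysis was possible because each condition was 1 library. Over 7 settings in the cultures and 8 in the wounds, 176 log2 ratios of the genes were recomputed and 170 kept their sign. The others were Hbegf in Ndrg2-KO against untreated DCs under 5% mitochondrial UMIs (0.63) and in Ndrg2-KO against control DC wounds as a mean over cells (-0.34), Ereg in the latter pair with all barcodes (-0.03), at least 300 UMIs (-0.04) or under 5% mitochondrial UMIs (-0.02), and Ereg in Ndrg2-KO DC against blank wounds as a mean over cells (0.48). The cause was not tested.

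Hbegf moved beyond its counting interval in these settings. VD3 against untreated DCs gave 3.58 under 5% mitochondrial UMIs and 3.86 as a mean over cells. Ndrg2-KO against untreated DCs gave -0.36 as a mean over cells, and against VD3 DCs -2.95 under 5% mitochondrial UMIs and -4.40 without mitochondrial and ribosomal protein genes. Ndrg2-KO against control DC wounds gave 0.34 with median-ratio scaling and 0.295 without the 10 cells richest in Hbegf, a setting added after the data were seen. Blank against control DC wounds gave -0.85 with all barcodes and -1.305 as a mean over cells. Ndrg2-KO DC against blank wounds gave 1.005 with all barcodes, 1.025 at 300 UMIs, 1.205 with median-ratio scaling, 0.96 as a mean over cells and 1.18 without those 10 cells. With 30 principal components the Gdf15 Ms4a7 cluster held 48.9% of the VD3 Hbegf, whereas at resolution 1.0 it split and the Elane Mpo cluster led with 41.5%. As means over cells, 0.96 ends a 2-fold call and -1.305 adds one.

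Requiring the whole interval past 2-fold left 332 of 645 lower genes in Ndrg2-KO against control DC wounds, 223 of 365 higher and 175 of 378 lower in blank against control DC wounds, and 96 of 170 higher and 95 of 162 lower in Ndrg2-KO DC against blank wounds. At least 200 UMIs left 104 of those 162. At resolution 1.0 the Arg1 Mmp12 cluster held 44.4% of Areg in Ndrg2-KO DC wounds. Single libraries, clusters drawn mostly from 1 library and few Tgfa and Egfr UMIs in the cultures limit what can be read.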
